A study of Mus musculus with 7 samples.

Results

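Solute carriers are the membrane proteins that move amino acids, sugars, metal ions, metabolites, vitamins and inorganic ions across the cell surface and across the membranes of mitochondria, the Golgi and other organelles. Their genes share the symbol prefix Slc or Slco followed by a family number. The genes described here are those whose symbol has this form and whose value reached 20 in at least 1 of 7 libraries of sorted mouse lung epithelium. Of 294 such symbols among the 21121 genes listed, 101 reached that level. Slc34a2, Slc12a2, Slc26a4, Slc38a4 and Slc2a1 were left out by name under the rule, and the other 96 make up the set. The level that chose these genes is itself a measured value, so their presence is a description and was not tested. The members nearest the level were Slc35e3, with a highest value of 20.3, Slc7a4 with 20.8 and Slc35a1 with 21.5. Just below it were Slc6a20a with 19.6, Slc37a3 with 19.3 and Slc6a8 with 19.2. Among the 96, Slc9a3r1 and Slc9a3r2 match by symbol only, since they encode scaffold proteins that bind transporters.

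The epithelium came from C57BL/6 mice of 3 embryonic ages, day 13.5 (E13.5), day 15.5 (E15.5) and day 18.5 (E18.5), and 2 postnatal ages, day 14 (P14) and day 56 (P56). There was 1 library each at E13.5, E15.5 and P14, and there were 2 each at E18.5 and P56. No group carried a mutation or a treatment, and in every group the cells had been sorted alive on Epcam after removal of cells with CD31, CD45, Ter119 or CD146. The RNA was read by 3' SAGE sequencing, in which a short tag near the 3' end stands for 1 transcript. Whether the libraries of a stage are separate animals is not stated in the labels, and the p-values therefore reflect the spread of these libraries alone.

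Across these stages the mouse lung goes from branching tubes through the formation of alveoli to the adult organ. Amino acid carriers of the plasma membrane often work as pairs, in which a heavy chain such as Slc3a2 brings a light chain of the Slc7 family to the surface. Zinc enters the cytosol through Slc39 proteins and leaves it through Slc30 proteins, and the Slc25 family forms the largest group of carriers of the inner mitochondrial membrane. In the alveolar epithelium, chloride, sodium and bicarbonate carriers take part in the secretion and removal of lung fluid, and choline and other precursors serve the synthesis of surfactant lipid.

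The libraries held 2559927 to 3895740 reads, and 1 read was worth 0.236 to 0.385 units of the deposited value. The epithelial genes Epcam, Cdh1 and Nkx2-1 were read in every library. The summed value of 6 alveolar type 2 markers was 89.1 (E13.5), 2099 (E15.5), 9219.98 and 8789.9 (E18.5), 32614 (P14), and 42596 and 47696 (P56), and that of 6 alveolar type 1 markers was 35.7 (E13.5), 192 (E15.5), 3083 and 3449 (E18.5), 4351 (P14), and 2797 and 3238 (P56). From E18.5 on most of the type 1 sum was Aqp5, and the 5 other type 1 markers summed to 33.3 (E13.5), 176 (E15.5), 1152 and 1267 (E18.5), 1212 (P14), and 252 and 238 (P56), lower at P56 than at E18.5 or P14. The 3 club cell markers in the table summed to 0.236 (E13.5), 28.7 (E15.5), 513 and 603 (E18.5), 2619.6 (P14), and 3973 and 4748 (P56). Of the other lists, 6 mesenchymal markers summed to between 34.3 and 189 per library, 4 endothelial markers to at most 13.6, and Ptprc and Cd68, the immune markers in the table, to at most 3.77. The 4 ciliated markers summed to 13.9 (E13.5), 100 (E15.5), 112 and 110 (E18.5), 25.9 (P14), and 129 and 138 (P56). The 4 erythroid markers summed to at most 44.1, with 0 and 44.1 in the E18.5 libraries. Marker sums of epithelial subtypes thus differed between stages together with the carriers. The part of epithelial subtypes in the differences below was not tested. In such bulk libraries, fewer cells of a type and less RNA per cell cannot be told apart. Tags are not read with equal ease from every gene, so sums over genes, and the naming of a highest gene, rest on tag counts and not on numbers of transcripts.

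The 96 genes held 0.478% (E13.5), 0.524% (E15.5), 0.703% and 0.766% (E18.5), 0.823% (P14), and 0.887% and 0.894% (P56) of all reads. The exact 95% binomial intervals, which cover counting error only, were 0.471% to 0.485% at E13.5 and 0.884% to 0.904% in the second P56 library. This share depends on the rule that chose the genes, since more of them reached the level late than early, and it is a description. The number of members at 20 or more was 47 (E13.5), 54 (E15.5), 69 and 65 (E18.5), 71 (P14), and 70 and 72 (P56). In all, 32 of the 96 (33.3%) were at 20 or more in all 7 libraries, against 2788 of the 6436 genes (43.3%) that met the same level rule. A further 13 (13.5%) reached 20 only at P14 or P56, 6 (6.25%) only at E13.5 or E15.5, and 6 (6.25%) only at E18.5. Among the 6436 genes these shares were 9.14%, 10.8% and 4.51%. The stage with the highest mean was P56 for 39 members (40.6%), P14 for 21 (21.9%), E18.5 for 19 (19.8%), E15.5 for 5 (5.21%) and E13.5 for 12 (12.5%). Among the 6436 genes at the same level the share that peaked at P56 was 22.9%, and the share that peaked at E13.5 was 29.5%.

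**Figure D1:**
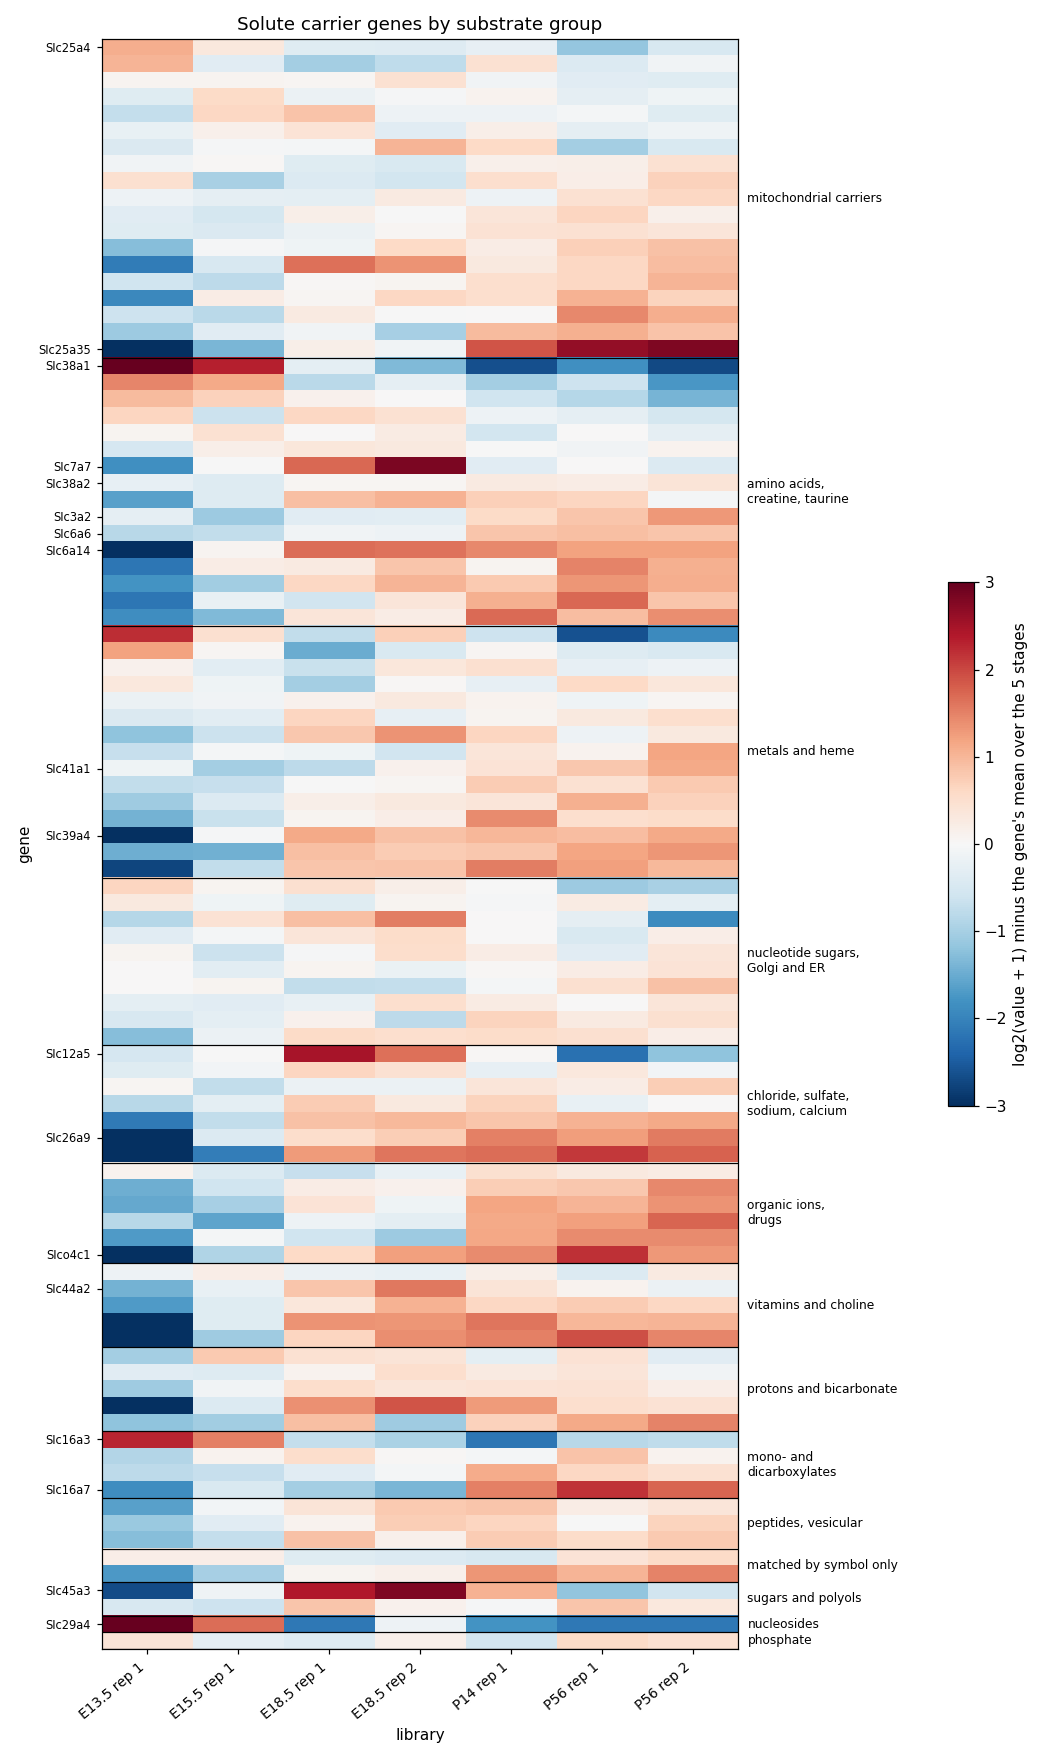
Level of each of the 96 genes in each library, as log2(value + 1) minus the gene's mean over the 5 stage means, with libraries across and genes grouped by substrate down the page and only some of them labelled. Many rows are blue at E13.5 and red at the later stages, and Slc38a1, Slc16a3 and Slc29a4 run the other way.

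The course differed between substrate groups, as the plot of summed values by group shows. The group of 19 mitochondrial carriers holds every Slc25 member, whichever membrane the protein of each sits in. Its genes summed to 1213 (E13.5), 1167 (E15.5), 1160.4 and 1211 (E18.5), 1416 (P14), and 1493 and 1691 (P56). The sums of the fetal libraries lay close together, and both P56 libraries were above them. Close sums do not mean that the genes were level before birth. Slc25a4, which is part of the sum, fell from 358 (E13.5) and 208 (E15.5) to 129 in each E18.5 library. The median over the 19 genes rose meanwhile, from 19.4 at E13.5 to 36.2 at E15.5 and 48.1 at E18.5. The 16 carriers of amino acids, creatine and taurine summed to 1161 (E13.5), 864 (E15.5), 1342 and 1409 (E18.5), 1891 (P14), and 2168 and 2552 (P56). The 7 carriers of chloride, sulfate, sodium and calcium summed to 132 (E13.5), 231 (E15.5), 546 and 562 (E18.5), 706 (P14), and 661 and 763 (P56), with every later library above both early ones. The 15 metal and heme carriers summed to 520.1 (E13.5), 750.3 (E15.5), 1308 and 1336 (E18.5), 1575 (P14), and 1469 and 1538 (P56), and most of that difference lay before birth. The 5 vitamin and choline carriers summed to 204 (E13.5), 472 (E15.5), 964 and 1573 (E18.5), 802 (P14), and 686 and 583 (P56), with both E18.5 libraries the highest. That peak was Slc44a2, and the other 4 summed to 31.2 (E13.5), 72.8 (E15.5), 139.8 and 183 (E18.5), 193 (P14), and 189 and 172 (P56), with no peak at E18.5. Likewise, the 15 amino acid carriers other than Slc3a2 summed to 575 (E13.5), 534 (E15.5), 784 and 842 (E18.5), 839 (P14), and 929 and 835 (P56), where E18.5, P14 and P56 overlapped.

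**Figure D2:**
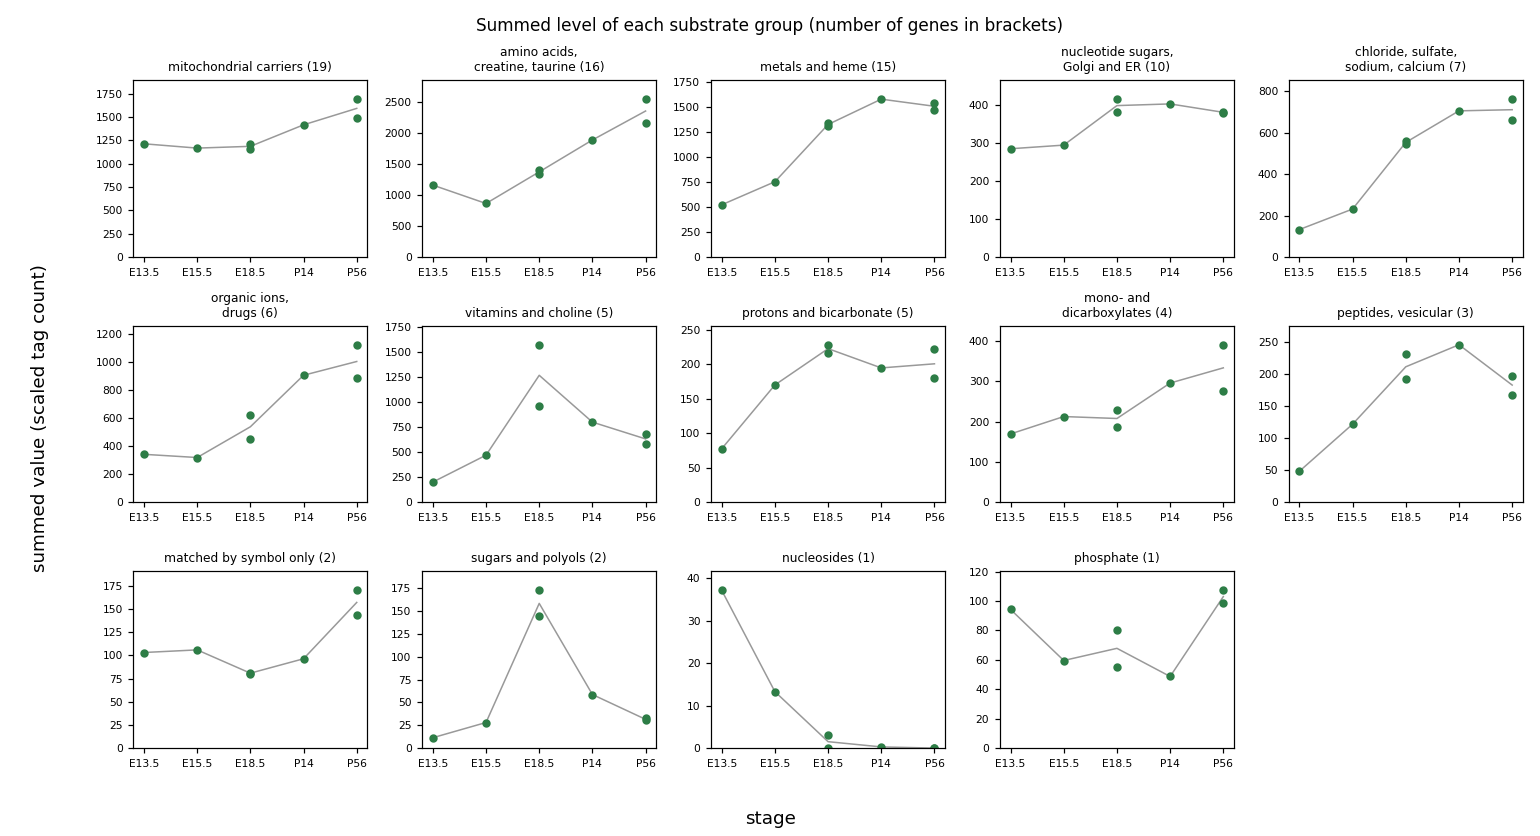
Summed value of the genes of each substrate group (vertical axis, scaled tag counts, from 0) at each stage, with 1 point per library and a line through the stage means. The sum of the vitamin and choline carriers peaks at E18.5 in both libraries through Slc44a2, and that of the amino acid carriers is highest in both P56 libraries with Slc3a2 included. In the organic ion group P14 lies between the P56 libraries.

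Set against E13.5 and E15.5, many more carriers were higher at E18.5 than were lower. By limma, at an adjusted p under 0.05 over all 12964 genes tested, 38 of the 96 members (39.6%) rose at E18.5 relative to the mean of both early stages and 7 (7.29%) fell. Of all genes tested, 15.8% rose and 13.4% fell, and of the 6436 genes that met the same level rule, 25.1% rose and 18.6% fell. The median log2 change was 0.67 over the members and 0.11 over the genes at the same level. With 1 library each at E13.5 and E15.5, the spread of these stages was not measured and was taken to be that of E18.5 and P56. Of the 38 that rose 18, and of the 7 that fell 6, did not reach 20 on both sides of the contrast. A member that reached 20 on 1 side only had to differ. Some of the 18, such as Slc25a35 (0.709 and 5.38 early, 17.7 and 14.3 at E18.5), reached 20 on neither side and entered the set through a later stage. Among the 32 members at 20 in all 7 libraries, 11 rose (34.4%) and 1 fell, against 20.4% and 16.8% of the 2788 genes at 20 throughout. The libraries did not overlap for 37 of the 38 (97.4%) and for all 7, against 98.1% and 99.5% of all genes called. All 45 calls were also made by edgeR. Without robust variances the calls of Slc12a5, Slc17a5, Slc22a15, Slc25a10, Slc25a51, Slc7a2 and Slco2a1 among those higher were lost, as were those of Slc1a4, Slc25a4 and Slc39a6 among those lower. Leaving out any 1 of the E18.5 or P56 libraries left limma a single residual degree of freedom and no call in this or any other comparison, whereas edgeR, which called 39 higher and 7 lower on all libraries (background 17.9% and 12.9%), then called 40 to 44 higher.

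At P56 the calls divided about evenly between higher and lower. Relative to E18.5, 12 members (12.5%) rose and 9 (9.38%) fell, against 8.07% and 6.15% of all genes tested and 12.5% and 9.68% of genes at the same level, so the shares were near the background of genes at that level. The median log2 change was 0.20 over the members and 0.08 over genes at the same level. Only 6 of the 12 that rose and 2 of the 9 that fell reached 20 on both sides of the contrast. The libraries did not overlap for any of the 21, nor for any of the 1046 genes called higher and the 797 called lower among all genes tested. All 21 calls were also made by edgeR. Without robust variances 4 of the 12 were lost, among them Slc25a11, Slc25a27 and Slc26a9, and 6 of the 9, which were Slc35e3, Slc40a1, Slc44a2, Slc7a1, Slc7a5 and Slc7a7. With edgeR, 13 rose and 13 fell (background 8.28% and 7.89%). Leaving out the first or the second P56 library left edgeR 6 or 7 members higher and 8 or 6 lower. At P14 relative to E18.5, Slc39a13, Slc25a35 and Slc16a7 rose (3.12%, background 1.87% and 3.40%) and none fell (background 1.24% and 2.39%). Of these 3, only Slc39a13 reached 20 on both sides. All 3 calls were lost without robust variances. Before adjustment 17 members were higher and 8 lower at p under 0.05 in that limma fit, and edgeR called 5 higher and 3 lower (background 3.16% and 2.13%). Without the first or the second E18.5 library edgeR called 12 or 10 higher and 5 lower in either case, and without the first P56 library it called 3 higher and 2 lower. Between P56 and P14, limma called 0 members higher (background 0.123% and 0.233%) and 0 lower (background 0.694% and 1.37%), with 6 higher and 5 lower before adjustment. There edgeR (background 0.571% higher and 1.49% lower) and DESeq2 each called Slc45a3 lower at P56 and no other member. Without either E18.5 library edgeR called 3 higher and 5 lower, and without the first P56 library it called none. With 1 library at P14, its spread was taken to be that of E18.5 and P56.

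**Figure D3:**
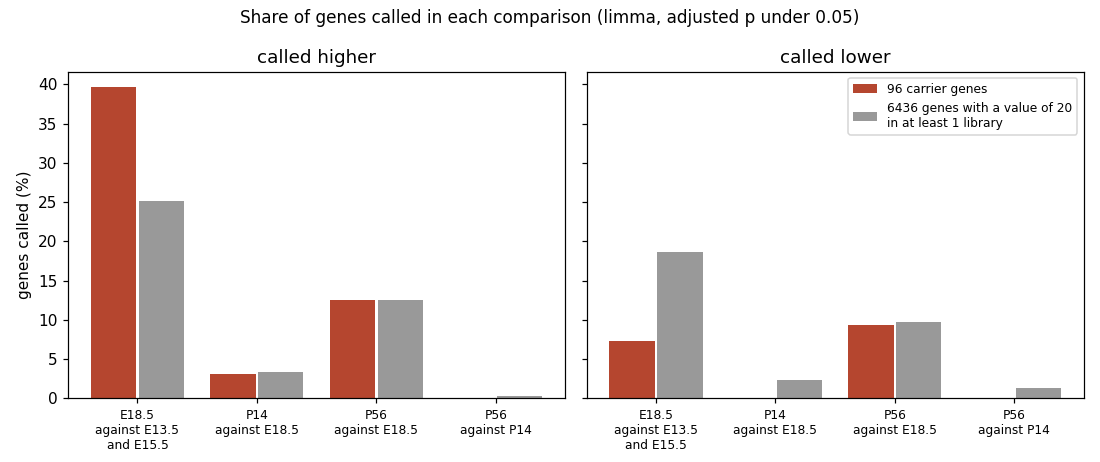
Share of genes (vertical axis, percent, from 0) called higher (left) and lower (right) by limma in each comparison, for the 96 carrier genes and for the 6436 genes at 20 or more in at least 1 library. The bars stand apart for E18.5 against E13.5 and E15.5, at 39.6% and 25.1% higher and 7.29% and 18.6% lower, and are nearly level for P56 against E18.5.

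The amino acid group held genes that fell before birth, genes that rose before birth and genes that changed after E18.5. Slc38a1, a sodium-coupled carrier of glutamine and other neutral amino acids, had 139.9 (E13.5), 73.9 (E15.5), 11.2 and 4.898 (E18.5), 1.38 (P14), and 3.13 and 1.296 (P56). Both early libraries lay above all 5 later ones, and the mean at E18.5 was 13.3-fold lower than the early mean (limma log2 change -3.600, SE 0.48, adjusted p = 0.00181). Slc1a4, an exchanger of alanine, serine and cysteine, followed the same course, with 25.99 (E13.5), 20.5 (E15.5), 4.62 and 7.16 (E18.5), 3.85 (P14), and 5.41 and 1.94 (P56). It fell 3.94-fold at E18.5 (limma log2 change -1.83, SE 0.48, adjusted p = 0.027). Its relative Slc1a5, a glutamine exchanger, went the other way, with 25.5 (E13.5), 43.8 (E15.5), 141 and 186 (E18.5), 158 (P14), and 232 and 196 (P56). Its E18.5 mean was 4.72-fold above the early mean (limma log2 change 2.24, SE 0.23, adjusted p = 0.000591), and all 5 later libraries were above both early ones.

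Slc6a14, which takes up a broad range of neutral and cationic amino acids, had no read at E13.5. Its values were 0 (E13.5), 21.2 (E15.5), 65.5 and 63.7 (E18.5), 55.8 (P14), and 46.95 and 47.3 (P56), and it rose 6.099-fold at E18.5 over the early mean (limma log2 change 3.799, SE 0.25, adjusted p = 9.94e-05). Slc36a1, a proton-coupled amino acid carrier, had 10.4 (E13.5), 26.2 (E15.5), 65.1 and 71.96 (E18.5), 56.9 (P14), and 54.6 and 33.04 (P56) and also rose at E18.5 (limma log2 change 1.98, SE 0.30, adjusted p = 0.00316). Slc43a2, a carrier of large neutral amino acids, rose as well (limma log2 change 1.89, SE 0.36, adjusted p = 0.00846), and Slc7a2, a carrier of cationic amino acids, did so too (limma log2 change 1.53, SE 0.37, adjusted p = 0.0211). Slc43a2 had 1.18 (E13.5), 2.15 (E15.5), 9.24 and 8.29 (E18.5), 24.8 (P14), and 13.9 and 19.8 (P56). Slc7a2 had 0.945 (E13.5), 9.33 (E15.5), 9.63 and 14.7 (E18.5), 8.25 (P14), and 23.9 and 17.5 (P56). For these 4 genes the early libraries were all below the E18.5 libraries, but for Slc7a2 the E15.5 library and the first E18.5 library were nearly level. The Slc7a2 call was lost with a pseudocount of 5 and with DESeq2's test.

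After E18.5 the heavy chain Slc3a2 rose, and its light chains Slc7a5 and Slc7a7 fell. Slc3a2, the heavy chain also called CD98, had 586 (E13.5), 330.5 (E15.5), 558 and 567 (E18.5), 1053 (P14), and 1239.6 and 1717 (P56). Both P56 libraries lay above every other library, and the P56 mean of 1478 ± 338 was 2.63-fold that of 563 ± 6.21 at E18.5 (SD, n = 2 each, limma log2 change 1.37, SE 0.20, adjusted p = 0.00561). Its light chain Slc7a5, which carries large neutral amino acids, had 121 (E13.5), 48.4 (E15.5), 119 and 105 (E18.5), 68.5 (P14), and 63.5 and 52.5 (P56), with E15.5 below both E18.5 libraries. Slc7a5 was 1.93-fold lower at P56 than at E18.5 (limma log2 change -0.94, SE 0.22, adjusted p = 0.0297). A second light chain, Slc7a7, which exports cationic amino acids, had 0.709 (E13.5), 5.02 (E15.5), 19.3 and 41.8 (E18.5), 3.85 (P14), and 5.12 and 3.56 (P56). It rose at E18.5 over the early stages (limma log2 change 3.198, SE 0.47, adjusted p = 0.00296) and fell 7.03-fold at P56 (limma log2 change -2.48, SE 0.47, adjusted p = 0.015). Both E18.5 libraries were above all others, although they themselves differed more than 2-fold.

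Slc7a1, the widely expressed uptake carrier of arginine and lysine, had 41.8 (E13.5), 35.2 (E15.5), 23.5 and 21.5 (E18.5), 13.8 (P14), and 11.4 and 7.45 (P56) and fell at P56 relative to E18.5 (limma log2 change -1.198, SE 0.31, adjusted p = 0.042). Its values ran downward over all 5 stages, and the libraries of E18.5 and P56 did not overlap. Slc6a6, the taurine carrier, had 86.7 (E13.5), 92.6 (E15.5), 145 and 141 (E18.5), 279 (P14), and 294 and 276 (P56). It was called higher at E18.5 than in the early stages (limma log2 change 0.67, SE 0.18, adjusted p = 0.0307) and again higher at P56 than at E18.5, by 1.99-fold (limma log2 change 0.99, SE 0.18, adjusted p = 0.0127). Of the 16 genes of this group, 7 rose and 2 fell at E18.5, and 2 rose and 3 fell at P56. The shares for genes at the same level were 25.1% and 18.6% at E18.5, and 12.5% and 9.68% at P56. Slc38a2, Slc38a10, Slc7a14 and Slc7a4 were called in none of the comparisons, and Slc38a2 stayed between 46.6 and 81.0.

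**Figure D4:**
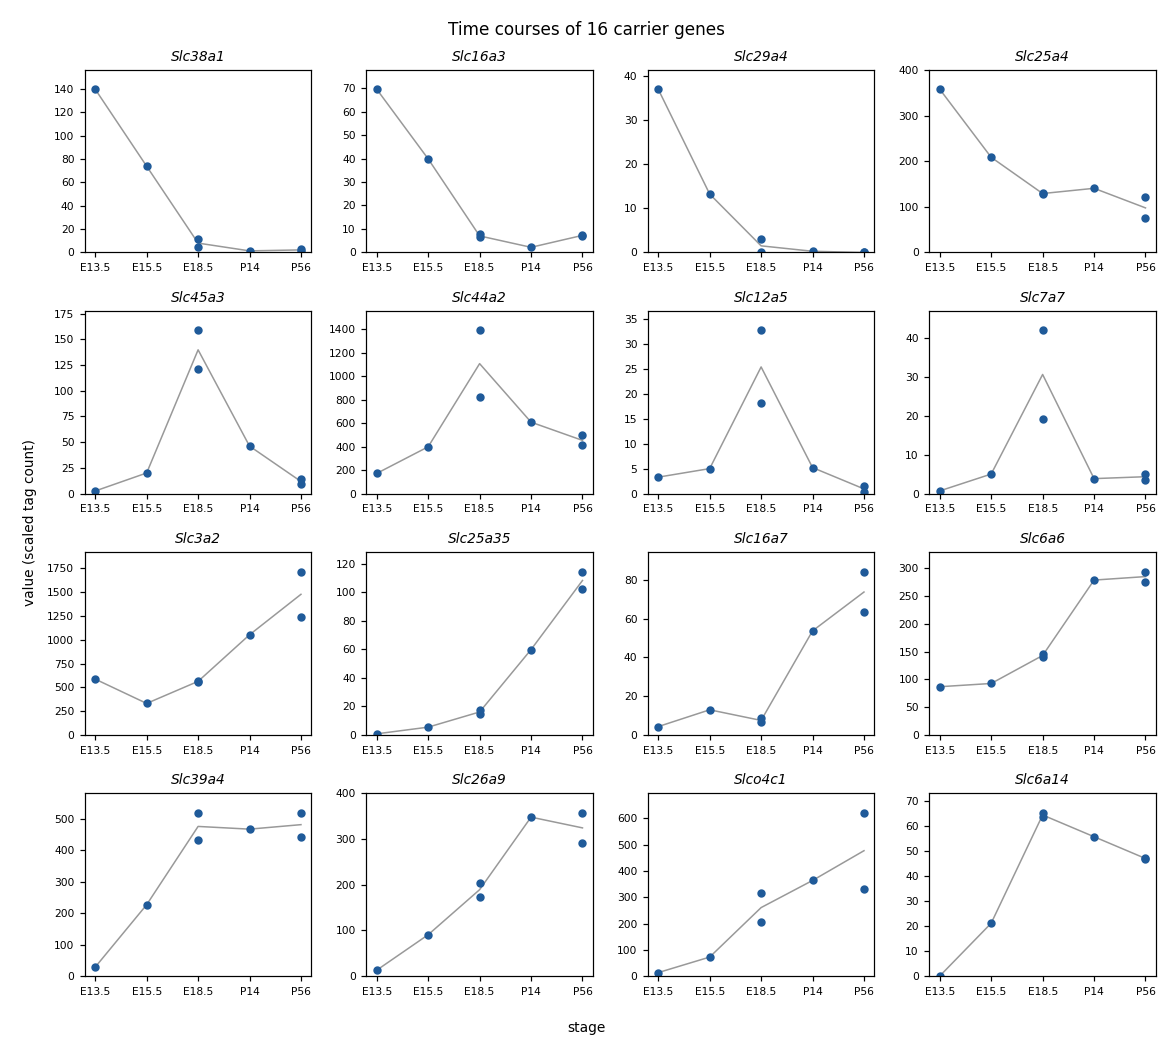
Values (vertical axis, scaled tag counts, each panel on its own scale from 0) of 16 carrier genes at each stage, with 1 point per library and a line through the stage means. The top row falls before birth, the second row peaks at E18.5, the third row is highest at P56, and the bottom row rises before birth.

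Of the 6 metal carriers that rose at E18.5, Slc39a4, Slc39a8 and Slc39a13 belong to the zinc importer family. Slc39a4, a zinc importer of the cell surface, had 28.4 (E13.5), 227 (E15.5), 519 and 433 (E18.5), 467 (P14), and 444 and 519 (P56). It rose 3.73-fold at E18.5 (limma log2 change 2.54, SE 0.19, adjusted p = 0.000197), and the libraries of E18.5, P14 and P56 overlapped each other. Slc39a8, an importer of zinc and manganese, had 2.84 (E13.5), 14.7 (E15.5), 45.4 and 45.97 (E18.5), 75.1 (P14), and 60.3 and 50.2 (P56) and rose 5.21-fold (limma log2 change 2.59, SE 0.25, adjusted p = 0.000502). Slc39a13, a zinc carrier of the secretory pathway, had 50.6 (E13.5), 85.8 (E15.5), 147 and 159 (E18.5), 371 (P14), and 196 and 202 (P56). It rose at E18.5 (limma log2 change 1.199, SE 0.19, adjusted p = 0.00351) and again at P14, to 2.43-fold the E18.5 mean (limma log2 change 1.28, SE 0.23, adjusted p = 0.0334), where the single P14 library was the highest of the 7. The P14 call was lost without robust variances (limma adjusted p = 0.0863). Slc39a6 ran against these, with 32.8 (E13.5), 14.4 (E15.5), 4.24 and 9.796 (E18.5), 14.3 (P14), and 10.2 and 9.72 (P56), and fell at E18.5 (limma log2 change -1.600, SE 0.41, adjusted p = 0.0247).

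Of the zinc exporters, Slc30a7, which fills the Golgi, had 59.8 (E13.5), 94.01 (E15.5), 142 and 154 (E18.5), 162 (P14), and 265 and 203 (P56) and rose at E18.5 (limma log2 change 0.97, SE 0.21, adjusted p = 0.0139). Slc30a1, the exporter of the plasma membrane, had 79.4 (E13.5), 58.5 (E15.5), 30.8 and 65.6 (E18.5), 53.4 (P14), and 97.3 and 81.3 (P56), with E18.5 libraries more than 2-fold apart, and was not called. Slc31a1, the copper importer, had 18.2 (E13.5), 18.7 (E15.5), 98.6 and 88.5 (E18.5), 91.6 (P14), and 120.4 and 131 (P56). Every library from E18.5 on was above both early ones, and the change was 5.08-fold (limma log2 change 2.28, SE 0.21, adjusted p = 0.000427). Slc11a2, the iron importer DMT1, had 15.6 (E13.5), 23.7 (E15.5), 66.2 and 96.8 (E18.5), 59.4 (P14), and 33.6 and 45.7 (P56) and rose 4.15-fold at E18.5 (limma log2 change 2.002, SE 0.29, adjusted p = 0.00268). Slc40a1, the iron exporter ferroportin, had 27.4 (E13.5), 7.54 (E15.5), 2.695 and 9.04 (E18.5), 3.03 (P14), and 0 and 0.648 (P56), with its highest library at E13.5. It fell at P56 relative to E18.5 (limma log2 change -2.25, SE 0.59, adjusted p = 0.0459), but both P56 libraries together held 2 reads, and the ratio of 18.1 has a 95% counting interval of 5.02 to 149.6. Slc48a1, which moves heme, had 8.98 (E13.5), 9.33 (E15.5), 15.4 and 16.2 (E18.5), 27.2 (P14), and 21.9 and 27.9 (P56), with every postnatal library above every fetal one, and was not called. In this group of 15, 6 rose and 1 fell at E18.5, and at P56 none rose and Slc40a1 was the 1 that fell. Among genes at the same level, 25.1% rose and 18.6% fell at E18.5, and 12.5% and 9.68% did so at P56.

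The list of proteins that handle zinc, iron and copper inside the cell, which had 12 tested genes, gave 3 higher and 2 lower at E18.5 against the early stages (background 15.8% and 13.4%), with a median log2 change of -0.12 against 0.03 over all genes tested. At P56 relative to E18.5 it gave 5 higher and none lower (background 8.07% and 6.15%), with a median of 0.95 against 0.06 over all genes. The 5 were the ferritin chains Fth1 and Ftl1, the transferrin receptor Tfrc, Aco1, whose protein also acts as an iron sensor, and the metallothionein Mt2. Tfrc had 217 (E13.5), 200.2 (E15.5), 114 and 147 (E18.5), 279.5 (P14), and 314 and 355 (P56) (limma log2 change 1.36, SE 0.20, adjusted p = 0.00605 at P56 against E18.5). Fth1 had 144 (E13.5), 177 (E15.5), 269 and 301 (E18.5), 399.7 (P14), and 466 and 594 (P56) (limma log2 change 0.88, SE 0.20, adjusted p = 0.0267). For both genes all P56 values lay above the E18.5 values.

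Of the 7 carriers of chloride, sulfate, sodium and calcium, 5 rose at E18.5, and at P56 Slc26a9 rose and Slc12a5 fell. For genes at the same level, 25.1% rose at E18.5, and 12.5% rose and 9.68% fell at P56. Slc26a9, a chloride channel and exchanger of airway epithelium, had 12.8 (E13.5), 90.4 (E15.5), 174 and 204 (E18.5), 348 (P14), and 291 and 358 (P56). It rose 3.67-fold at E18.5 over the early mean (limma log2 change 2.42, SE 0.21, adjusted p = 0.000301) and a further 1.72-fold at P56 (limma log2 change 0.77, SE 0.21, adjusted p = 0.0486); with TMM scaling or DESeq2 size factors the P56 call was lost. Slc26a2, a sulfate carrier, had 21.5 (E13.5), 57.8 (E15.5), 178 and 190.3 (E18.5), 171 (P14), and 199 and 212 (P56) and rose 4.65-fold at E18.5 (limma log2 change 2.35, SE 0.19, adjusted p = 0.000241). Slc24a4, which exchanges sodium for calcium and potassium, had 0.473 (E13.5), 1.79 (E15.5), 27.7 and 34.7 (E18.5), 36.3 (P14), and 50.1 and 38.9 (P56), with 2 reads at the first stage and 5 at the next. It rose at E18.5 (limma log2 change 3.98, SE 0.31, adjusted p = 0.000212), and all later libraries were above both early ones.

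Slc12a5, a potassium-chloride cotransporter known mainly from neurons, reached 20 only in an E18.5 library. Its values were 3.31 (E13.5), 5.02 (E15.5), 32.7 and 18.1 (E18.5), 5.23 (P14), and 0.285 and 1.62 (P56), and it rose over the early stages (limma log2 change 2.32, SE 0.52, adjusted p = 0.015) and fell 26.7-fold at P56 (limma log2 change -3.79, SE 0.52, adjusted p = 0.00414). The P56 libraries held 1 and 5 reads. Neuroendocrine markers, of which 4 were listed, summed to 22.2 (E13.5), 4.31 (E15.5), 9.24 and 0.377 (E18.5), 4.68 (P14), and 3.98 and 1.296 (P56). Their part in the result was not tested. Slc12a4, a relative of Slc12a5, at 66.6 (E13.5), 38.03 (E15.5), 56.6 and 56.9 (E18.5), 83.6 (P14), and 75.4 and 108 (P56), was not called.

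Among carriers of organic ions, Slco4c1 had the largest change at E18.5. It transports steroid conjugates and other organic anions and had 13 (E13.5), 72.1 (E15.5), 204 and 317 (E18.5), 364 (P14), and 622 and 333 (P56). It rose 6.12-fold at E18.5 (limma log2 change 2.997, SE 0.34, adjusted p = 0.000932), and the P56 libraries, nearly 2-fold apart, lay above those of E18.5 without passing the test. Slco2a1, the uptake carrier of prostaglandins, had 13.2 (E13.5), 7.54 (E15.5), 21.9 and 19.97 (E18.5), 54.7 (P14), and 59.2 and 84.5 (P56). It rose at E18.5 (limma log2 change 0.99, SE 0.28, adjusted p = 0.0359) and was 3.43-fold higher at P56 than at E18.5 (limma log2 change 1.71, SE 0.28, adjusted p = 0.00845). Slc22a5, which takes up carnitine, had 1.65 (E13.5), 7.18 (E15.5), 4.62 and 3.01 (E18.5), 18.2 (P14), and 21.9 and 22.02 (P56). Both P56 libraries and the P14 library stood above all fetal ones, and the P56 mean was 5.76-fold the E18.5 mean (limma log2 change 2.27, SE 0.36, adjusted p = 0.00747). Slc22a15 and Slc22a23 rose at E18.5 (limma log2 changes 1.21 and 1.41, adjusted p = 0.0217 and adjusted p = 0.0147). Slc22a17, a receptor for lipocalin 2 in this family, had 302 (E13.5), 210.3 (E15.5), 174 and 241 (E18.5), 388 (P14), and 343 and 333 (P56) and was not called.

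Among carriers of monocarboxylates such as lactate, Slc16a3 fell before birth and Slc16a7 rose after it. Slc16a3, also named MCT4, which exports lactate, had 69.5 (E13.5), 39.8 (E15.5), 7.7 and 6.41 (E18.5), 2.201 (P14), and 7.11 and 7.45 (P56). Both early libraries were above all later ones, and the E18.5 mean was 7.75-fold lower (limma log2 change -2.74, SE 0.31, adjusted p = 0.00095). Slc16a7, or MCT2, had 4.25 (E13.5), 12.9 (E15.5), 8.47 and 6.41 (E18.5), 53.6 (P14), and 84.2 and 63.2 (P56). It was 9.91-fold higher at P56 (limma log2 change 3.14, SE 0.30, adjusted p = 0.000912) and 7.21-fold higher at P14 (limma log2 change 2.71, SE 0.37, adjusted p = 0.0157) than at E18.5, comparisons that share the E18.5 libraries. Slc16a1, or MCT1, had 61.2 (E13.5), 123 (E15.5), 165 and 117 (E18.5), 109 (P14), and 205 and 123 (P56) and passed no test.

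The accessory proteins of these carriers were in a list of 16 tested partners and pumps. Bsg, the glycoprotein that brings MCT1 and MCT4 to the surface, had 3137 (E13.5), 6117 (E15.5), 16741 and 21493 (E18.5), 8842 (P14), and 6689 and 4674 (P56). It rose at E18.5 (limma log2 change 2.11, SE 0.22, adjusted p = 0.000684) and fell at P56 (limma log2 change -1.76, SE 0.22, adjusted p = 0.00291). Emb, or embigin, which does the same for MCT2, had 6.62 (E13.5), 3.95 (E15.5), 22.7 and 16.2 (E18.5), 155 (P14), and 177 and 164 (P56). It rose at E18.5 (limma log2 change 1.72, SE 0.27, adjusted p = 0.00365), and P56 (limma log2 change 3.09, SE 0.27, adjusted p = 0.000575) and P14 (limma log2 change 2.95, SE 0.33, adjusted p = 0.00686) lay above E18.5. Within the list, 9 genes rose and none fell at E18.5 (background 15.8% and 13.4% of all genes tested), among them the sodium pump subunit Atp1b1, and at P56 Emb and Wnk4 rose and Bsg, Wnk1 and Ank fell. The list's median log2 change was 1.09 at E18.5, against 0.03 over all genes tested, and -0.07 at P56, against 0.06 over all genes. Wnk kinases regulate chloride cotransporters, and Ank exports pyrophosphate.

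Of the 19 mitochondrial carriers, 4 rose and 2 fell at E18.5, against 25.1% and 18.6% of genes at the same level. Slc25a4, the ADP/ATP exchanger of heart and muscle, had 358 (E13.5), 208 (E15.5), 129 and 129 (E18.5), 141 (P14), and 74.6 and 121 (P56). It was 2.19-fold lower at E18.5 than in the early stages (limma log2 change -1.07, SE 0.26, adjusted p = 0.0193), with E13.5 the highest library. Its close relative Slc25a5 had 12.3 (E13.5), 32.3 (E15.5), 38.5 and 18.5 (E18.5), 18.7 (P14), and 19.9 and 15.9 (P56) and was not called. Near-identical copies of these exchangers may share reads, so both values are uncertain. Slc25a15, the ornithine carrier, had 48.4 (E13.5), 18.3 (E15.5), 11.2 and 13.6 (E18.5), 33.01 (P14), and 17.4 and 22.02 (P56) and fell at E18.5 (limma log2 change -1.21, SE 0.29, adjusted p = 0.0182). Slc25a29, a carrier of basic amino acids, had 7.798 (E13.5), 25.8 (E15.5), 117 and 95.3 (E18.5), 45.4 (P14), and 57.2 and 70.6 (P56) and rose 6.303-fold (limma log2 change 2.79, SE 0.25, adjusted p = 0.00034). Slc25a51, the carrier of NAD, had 65.5 (E13.5), 56.7 (E15.5), 101 and 105 (E18.5), 141 (P14), and 153 and 201 (P56) and rose (limma log2 change 0.75, SE 0.22, adjusted p = 0.0383). Slc25a10, which exchanges dicarboxylates for phosphate, had 8.98 (E13.5), 43.4 (E15.5), 38.5 and 57.6 (E18.5), 53.1 (P14), and 77.1 and 59.3 (P56) and rose (limma log2 change 1.19, SE 0.29, adjusted p = 0.0204), although its E15.5 library lay between those of E18.5.

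After birth the mitochondrial changes that passed were gains. Slc25a35, a carrier whose substrate is not established, had 0.709 (E13.5), 5.38 (E15.5), 17.7 and 14.3 (E18.5), 59.7 (P14), and 102 and 114 (P56). It rose 5.26-fold at E18.5 (limma log2 change 2.36, SE 0.28, adjusted p = 0.00109), and it was 3.73-fold higher at P14 (limma log2 change 1.84, SE 0.34, adjusted p = 0.0382) and 6.75-fold higher at P56 (limma log2 change 2.69, SE 0.28, adjusted p = 0.00122) than at E18.5. Slc25a11, which exchanges oxoglutarate for malate, had 374 (E13.5), 409 (E15.5), 310.3 and 292 (E18.5), 443 (P14), and 452 and 550.3 (P56), and its P56 libraries lay above those of E18.5 (limma log2 change 0.73, SE 0.19, adjusted p = 0.0408). That call was lost with TMM scaling and with DESeq2 size factors. Slc25a27, or UCP4, had 8.98 (E13.5), 7.89 (E15.5), 17.7 and 14.3 (E18.5), 14.6 (P14), and 41.3 and 32.1 (P56) and rose at P56 (limma log2 change 1.14, SE 0.30, adjusted p = 0.0469), a call also lost with both scalings. At P56, 4 of the 19 rose and none fell, which left 15 not called. Of genes at the same level, 12.5% rose and 9.68% fell.

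Slc44a2 and Slc45a3 had their highest values at E18.5. Slc44a2, a choline-transporter-like protein, had 173 (E13.5), 399 (E15.5), 824 and 1389.9 (E18.5), 609 (P14), and 497 and 411 (P56). It rose 3.87-fold at E18.5 (limma log2 change 2.02, SE 0.27, adjusted p = 0.00178), and at P56 it was 2.44-fold lower than at E18.5 (limma log2 change -1.24, SE 0.27, adjusted p = 0.0225). The P56 call was lost without robust variances (limma adjusted p = 0.0935) and without the filter on low values (limma adjusted p = 0.272). Slc45a3, named prostein after the prostate and related to sugar carriers, had 2.599 (E13.5), 20.1 (E15.5), 121 and 159 (E18.5), 46.2 (P14), and 9.11 and 14.6 (P56). Its E18.5 mean of 139.8 ± 26.7 (SD, n = 2) was 12.3-fold the early mean (limma log2 change 4.001, SE 0.32, adjusted p = 0.00022), and at P56 it fell 11.8-fold (limma log2 change -3.47, SE 0.32, adjusted p = 0.000725). For both genes the E18.5 libraries were above all 5 others. With Slc12a5 and Slc7a7 they are the 4 members called higher at E18.5 and then lower at P56, of which only Slc45a3 kept both calls without robust variances. The type 1 markers other than Aqp5 were also higher at E18.5 than at P56, and their part in these changes was not tested. Slc25a35, Slc26a9, Slc6a6 and Slco2a1 are the 4 called higher in both steps, 30 were called higher and then not called, and none was called lower at E18.5 and then called at P56. Both comparisons share the E18.5 libraries.

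In the vitamin and choline group, Slc23a2, Slc46a1 and Slc44a3 rose before birth and were not called afterwards, whereas Slc44a2 was called lower at P56. Slc23a2, which takes up ascorbate, had 1.42 (E13.5), 10.05 (E15.5), 34.7 and 59.5 (E18.5), 64.6 (P14), and 87.4 and 62.2 (P56) and rose 8.21-fold at E18.5 (limma log2 change 3.17, SE 0.34, adjusted p = 0.000766). Slc46a1, the proton-coupled folate carrier, had 7.09 (E13.5), 19.4 (E15.5), 31.96 and 53.1 (E18.5), 39.6 (P14), and 43.3 and 39.5 (P56) and rose 3.21-fold (limma log2 change 1.72, SE 0.31, adjusted p = 0.00666). Slc44a3, another choline-transporter-like gene, had 0.709 (E13.5), 15.1 (E15.5), 51.6 and 50.1 (E18.5), 61.1 (P14), and 40.1 and 40.5 (P56), with 3 reads at E13.5, and rose as well (limma log2 change 3.31, SE 0.25, adjusted p = 0.00019). Of the 5 genes in the vitamin and choline group, Slc44a1 was the 1 not called at E18.5, at 21.98 (E13.5), 28.3 (E15.5), 21.6 and 20.7 (E18.5), 27.5 (P14), and 18.2 and 29.8 (P56). Of genes at the same level, 25.1% rose at E18.5.

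All 3 peptide and vesicular carriers rose at E18.5, against 25.1% of genes at the same level. Slc15a2, which takes up small peptides, had 31.4 (E13.5), 93.7 (E15.5), 129 and 172 (E18.5), 176 (P14), and 116 and 127 (P56) (limma log2 change 1.44, SE 0.22, adjusted p = 0.00345). Slc15a4, a histidine and peptide carrier of lysosomes, had 8.51 (E13.5), 12.9 (E15.5), 41.2 and 24.5 (E18.5), 37.7 (P14), and 32.4 and 38.2 (P56) (limma log2 change 1.51, SE 0.32, adjusted p = 0.0129). Slc17a5, which exports sialic acid from lysosomes, had 8.74 (E13.5), 15.4 (E15.5), 21.6 and 33.9 (E18.5), 31.6 (P14), and 19.6 and 32.1 (P56) (limma log2 change 1.15, SE 0.36, adjusted p = 0.0481). Among carriers of protons and bicarbonate, Slc4a5, a sodium bicarbonate cotransporter, had 0 (E13.5), 5.02 (E15.5), 19.6 and 28.6 (E18.5), 18.4 (P14), and 10.2 and 9.72 (P56) and rose at E18.5 (limma log2 change 3.33, SE 0.36, adjusted p = 0.000773). Slc4a4, at 21.03 (E13.5), 76.8 (E15.5), 60.4 and 57.3 (E18.5), 35.8 (P14), and 59.5 and 34.7 (P56), was not called.

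Of the 10 carriers of nucleotide sugars and other Golgi and endoplasmic reticulum substrates, 1 rose at E18.5, and 1 rose and 2 fell at P56. Genes at the same level rose in 25.1% of cases at E18.5, and at P56 rose in 12.5% and fell in 9.68%. Slc33a1, which brings acetyl-CoA into the endoplasmic reticulum, had 44.9 (E13.5), 96.9 (E15.5), 162 and 155 (E18.5), 161 (P14), and 154 and 126 (P56) and was the 1 that rose at E18.5 (limma log2 change 1.25, SE 0.20, adjusted p = 0.00431). At P56, Slc35d1, a carrier of UDP-sugars used for cartilage proteoglycan, had 24.8 (E13.5), 26.2 (E15.5), 14.2 and 14.7 (E18.5), 23.4 (P14), and 34.7 and 45.99 (P56) and rose (limma log2 change 1.41, SE 0.27, adjusted p = 0.0163). Slc35b4, a carrier of UDP-sugars, had 31.7 (E13.5), 21.2 (E15.5), 28.1 and 22.6 (E18.5), 19.8 (P14), and 8.82 and 9.72 (P56) and fell (limma log2 change -1.35, SE 0.28, adjusted p = 0.0209). Slc35e3 had 3.07 (E13.5), 8.97 (E15.5), 12.7 and 20.3 (E18.5), 6.33 (P14), and 5.12 and 0.972 (P56) and fell (limma log2 change -2.300, SE 0.59, adjusted p = 0.0413). For these 3 the E18.5 and P56 libraries did not overlap. Slc29a4, which carries monoamines and belongs to the nucleoside carrier family, had 37.1 (E13.5), 13.3 (E15.5), 0 and 3.01 (E18.5), 0.275 (P14), and 0 and 0 (P56) and fell at E18.5 (limma log2 change -3.54, SE 0.70, adjusted p = 0.00945), with 8 reads in the 2 E18.5 libraries together and none at P56. The scaffold gene Slc9a3r1 had 99.7 (E13.5), 99.8 (E15.5), 67.4 and 65.6 (E18.5), 62.2 (P14), and 116 and 131 (P56) and rose at P56 (limma log2 change 0.89, SE 0.20, adjusted p = 0.0277), and Slc9a3r2 had 3.31 (E13.5), 6.1 (E15.5), 13.9 and 14.7 (E18.5), 34.1 (P14), and 27.6 and 38.5 (P56) and rose at E18.5 (limma log2 change 1.47, SE 0.31, adjusted p = 0.0125).

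Between E15.5 and E13.5, with 1 library each and no test, 27 members (28.1%) were at least 2-fold higher at E15.5 and 6 (6.25%) at least 2-fold lower, on value + 1. The shares were 13.5% and 5.76% for genes at the same level. Those higher at E15.5 included Slc39a4, at 227 against 28.4, and Slc26a9, at 90.4 against 12.8. The 6 lower ones were Slc40a1, Slc25a23, Slc29a4, Slc25a15, Slc7a5 and Slc39a6.

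In all, 58 members (60.4%) were called in at least 1 of the 4 comparisons and 38 in none, against 53.0% of genes at the same level and 36.1% of all genes tested with at least 1 call. A miss does not show that a level was constant. The narrowest range belonged to Slc30a9, a zinc carrier family member, at 145 (E13.5), 153 (E15.5), 181 and 199.7 (E18.5), 175 (P14), and 149 and 171 (P56), with the highest library 1.37 times the lowest. Others in this set of 38 were the mitochondrial phosphate carrier Slc25a3 (46.6 to 83.6), the nucleotide sugar carrier Slc35a3 (19.4 to 32.7), Slc35e2 (48.9 to 76.8) and the phosphate carrier Slc20a1 (48.7 to 107). The widest among the 38 was Slc7a4, at 0.473 to 20.8. The libraries of a stage set a floor for such statements. The 2 E18.5 libraries differed more than 2-fold on value + 1 for 10 members (10.4%) and the 2 P56 libraries for 4 (4.17%), against 9.04% and 4.01% of genes at the same level. The members' median absolute log2 difference was 0.33 at E18.5 and 0.32 at P56.

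The members lie on 20 chromosomes of the mm10 assembly, by the GENCODE annotation, and 8 pairs of neighbouring members lie less than 500 kb apart. Slc26a9, Slc41a1 and Slc45a3 follow each other on chromosome 1. Slc26a9 spans chr1:131744022-131771504, Slc41a1 chr1:131827493-131848865 and Slc45a3 chr1:131962967-131982969, with gaps of 56.0 kb and 114 kb. Their courses differed. Slc26a9 was called higher in both steps and Slc45a3 peaked at E18.5, with the values above, while Slc41a1, a magnesium carrier, had 12.1 (E13.5), 6.1 (E15.5), 7.32 and 14.7 (E18.5), 17.9 (P14), and 24.2 and 30.4 (P56) and was not called. On chromosome 15, Slc38a1 (chr15:96571418-96642913) and Slc38a2 (chr15:96687392-96699730) are 44.5 kb apart, and Slc38a1 fell at E18.5 where Slc38a2 was not called.

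**Figure D5:**
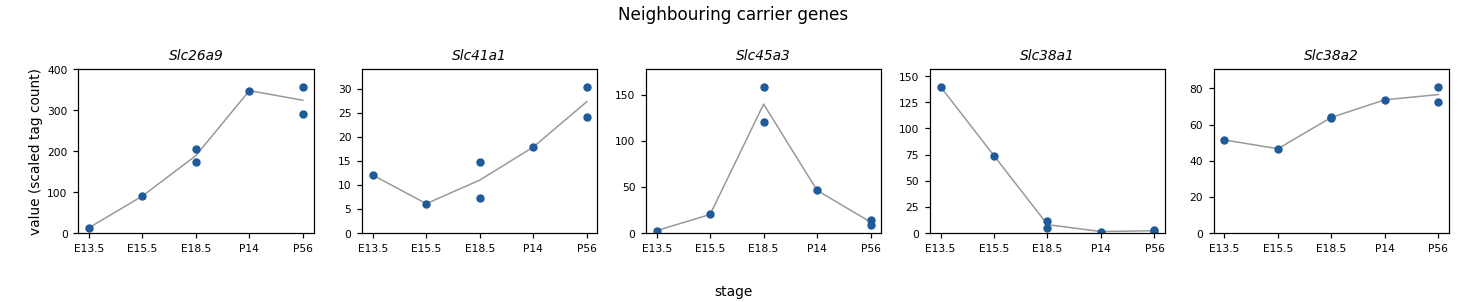
Values (vertical axis, scaled tag counts, each panel on its own scale from 0) of 5 neighbouring carrier genes at each stage, with 1 point per library and a line through the stage means. Slc26a9 is highest at P14 and P56, Slc45a3 is highest at E18.5 (121 and 159), and Slc38a1 is near 0 after birth where Slc38a2 is highest.

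Promoter windows of 300 bases, 250 before the start of the gene and 50 after it, were taken from RefSeq (GRCm38.p6) and found for 72 of the 96 members. The 3 chromosome 1 neighbours are shown because their courses differ over a short distance, Slc6a14 because it had no read at E13.5, and Slc30a9 because it varied least. Capitals mark the dinucleotide CG, where mammalian DNA can be methylated. The windows lie at chr1:131743772-131744071, chr1:131827762-131828061, chr1:131962665-131962964, chrX:21714650-21714949 and chr5:67306705-67307004, all on the plus strand. RefSeq and GENCODE place some starts differently, so the Slc41a1 window lies inside the GENCODE span given above and the Slc45a3 window ends before it.
Slc26a9: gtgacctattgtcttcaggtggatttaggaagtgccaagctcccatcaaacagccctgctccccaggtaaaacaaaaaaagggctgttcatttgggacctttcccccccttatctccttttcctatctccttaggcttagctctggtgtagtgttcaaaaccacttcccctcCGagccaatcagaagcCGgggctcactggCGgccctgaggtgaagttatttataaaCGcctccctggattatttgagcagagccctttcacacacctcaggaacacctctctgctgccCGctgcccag
Slc41a1: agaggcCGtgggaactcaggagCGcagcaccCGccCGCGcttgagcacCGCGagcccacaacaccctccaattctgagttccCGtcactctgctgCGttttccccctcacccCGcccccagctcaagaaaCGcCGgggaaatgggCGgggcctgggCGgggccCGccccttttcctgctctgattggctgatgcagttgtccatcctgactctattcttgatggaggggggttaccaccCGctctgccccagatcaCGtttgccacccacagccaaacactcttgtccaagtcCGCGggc
Slc45a3: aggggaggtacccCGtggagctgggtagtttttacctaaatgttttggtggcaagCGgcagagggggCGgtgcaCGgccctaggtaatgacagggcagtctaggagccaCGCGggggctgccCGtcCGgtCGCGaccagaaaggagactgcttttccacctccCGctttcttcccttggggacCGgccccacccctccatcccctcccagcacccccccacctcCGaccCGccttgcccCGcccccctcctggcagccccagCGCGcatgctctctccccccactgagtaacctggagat
Slc6a14: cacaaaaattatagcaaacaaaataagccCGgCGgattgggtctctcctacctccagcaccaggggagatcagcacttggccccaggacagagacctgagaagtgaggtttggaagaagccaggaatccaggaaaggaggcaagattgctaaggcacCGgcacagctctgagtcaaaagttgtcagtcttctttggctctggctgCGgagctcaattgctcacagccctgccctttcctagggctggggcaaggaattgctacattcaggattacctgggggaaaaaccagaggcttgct
Slc30a9: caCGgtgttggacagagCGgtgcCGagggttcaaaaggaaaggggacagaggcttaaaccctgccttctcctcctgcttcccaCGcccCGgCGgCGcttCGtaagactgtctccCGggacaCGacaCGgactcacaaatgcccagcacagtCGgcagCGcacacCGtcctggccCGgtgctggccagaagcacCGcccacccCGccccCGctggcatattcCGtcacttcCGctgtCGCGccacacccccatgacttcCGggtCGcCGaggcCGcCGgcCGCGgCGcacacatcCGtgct

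The windows of Slc26a9 and Slc6a14 held 5 and 4 CG dinucleotides, those of Slc45a3 and Slc41a1 held 17 and 19, and that of Slc30a9 held 31. Over the 72 windows the median was 21, against 22 for the 4746 genes at the same level and 7 for all 27025 windows. Over the 41 members called in a comparison the median was 21, and over the 31 called in none it was 28. The letters GGGCGG, on either strand, occurred in 81.9% of member windows and 68.5% of windows of genes at the same level, and in all 14 windows of mitochondrial carriers. The letters TATAAA, on either strand, occurred in 8.33% of member windows and 6.78% of those at the same level, and the Slc26a9 window held them in the stretch tttataaa, which reads so on both strands. The core of the metal response element, TGCGCNC or TGCACNC on either strand, occurred in 3 of 10 windows of metal carriers and in 37.3% of those at the same level. A match describes the letters of the window and not a site in use.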

How the data were processed

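Epithelial cells of C57BL/6 mouse lungs at 5 stages, sorted as living Epcam-positive cells without blood and vessel markers, gave 7 libraries of 3' SAGE tags read on an Ion Proton, per the labels' protocols. Each deposited value is a signal, the tag count of a gene after the authors divided it by 1 factor per library. Whole reads were recovered from the values for 100% of genes within 0.01 reads. The submitters' processing notes name the mm10 build with Bowtie2 2.2.5 and with R 3.4.0. The counting program, annotation, strand handling and scaling are not given in the sources used here, so reads of overlapping genes may be mixed.

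Members are genes with an Slc or Slco symbol and a value of 20 in at least 1 library. All 96 passed the filterByExpr rule by stage, as did 12964 of 21121 genes. The main test was limma-trend with robust variances on log2(value + 1), with 1 coefficient per stage and 2 residual degrees of freedom, and Benjamini-Hochberg adjustment over all genes tested at 0.05. The log2 changes are differences of mean log values on that scale, where the pseudocount shrinks those of genes with few reads. Fold values are ratios of mean values without the pseudocount, so the early mean leans on the higher early library and a log2 change can exceed the printed fold. The count test first planned for whole counts was run as an alternative (edgeR quasi-likelihood on recovered reads), because the values proved to be scaled. Genes named by rule passed the test, did not overlap between stages and had a mean of 100 in the higher stage. The highest and the widest-ranging member of each substrate group were named too, and other genes were chosen after their values were seen. Some genes are counted but not reported by name here. Members, substrate groups and lists were chosen with earlier results of these data known. The E18.5 pair and the P56 pair differed by more than sampling noise and were counted as separate libraries. Depth was 2559927 to 3895740 reads, so a single read was 0.236 to 0.385 units, and intervals cover counting error only. The methods were tested on simulated data. Fits used limma 3.58.1 under R 4.3.3, and the alternatives used DESeq2 1.42.0 and edgeR 4.0.16. Figures used matplotlib 3.10.9 under Python 3.11.15.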

Additional observations from a re-analysis of the deposited data

How the results depend on the processing

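With 2 residual degrees of freedom, the counts of members called depend on how the spread is estimated. For P56 against E18.5, 12 higher and 9 lower became 2 and 1 without the filter on low values, 5 and 2 with a replicate block, 7 higher with DESeq2's Wald test and 3 lower without robust variances. For P14 against E18.5, 3 higher and 0 lower became 5 and 3 with edgeR and 0 higher with the replicate block or without robust variances, and DESeq2 called 2 lower. For P56 against P14, 0 lower became 1 without the filter, with edgeR and with DESeq2. For E18.5 against E13.5 and E15.5, 38 higher and 7 lower became 18 and 1 without the filter and 23 and 4 with the replicate block, and 3 lower with DESeq2 and 4 lower without robust variances. Leaving out any 1 of the E18.5 or P56 libraries gave 0 calls by limma in every comparison. With edgeR, an alternative chosen after seeing the data, it gave 6 to 16 higher and 6 to 14 lower for P56 against E18.5, 3 to 12 and 2 to 5 for P14 against E18.5, 0 to 3 and 0 to 5 for P56 against P14, and 40 to 44 higher for E18.5 against the early stages. A level of 50 in place of 20 left 54 members, and a level of 10 gave 139. The cause of these differences was not tested, except that a library left out removes a residual degree of freedom. Number 1 occurs at every stage and number 2 at E18.5 and P56 only. Same-numbered libraries of those 2 stages did not deviate together (r = -0.037 over 6807 genes). The labels do not say what the numbers mean, and this correlation cannot exclude a shared batch or day. The 20 results of genes named by rule kept their direction under every alternative. These genes were chosen for libraries that do not overlap between stages, which makes a reversal hardly possible, so this is no test of the direction. All 20 kept their call with edgeR and with a pseudocount of 5, 18 with TMM scaling, DESeq2 size factors or DESeq2's test, 12 with the replicate block and 9 without the filter. Depth limits members with few reads, such as Slc40a1, Slc29a4 and Slc12a5 at P56.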

Other observations

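Genes of the amino acid stress response, which encode enzymes and factors induced when amino acids run short, were followed beside the amino acid carriers. Of 12 tested, 4 rose and 2 fell at E18.5 relative to E13.5 and E15.5, and 3 rose and 2 fell at P56 relative to E18.5. Atf3, Sesn2, Nupr1 and Vldlr rose at E18.5, where Asns and Phgdh fell. Sesn2, Nupr1 and Cth rose at P56, where Psat1 and Shmt2 fell. The limma log2 changes at E18.5 were 3.54 for Vldlr, 3.17 for Nupr1 and 2.18 for Atf3, and at P56 2.93 for Nupr1 and 2.56 for Cth. Of all genes tested, 15.8% rose and 13.4% fell at E18.5, and 8.07% rose and 6.15% fell at P56. The median log2 change was 0.53 at E18.5, against 0.03 over all genes tested, and 0.43 at P56, against 0.06 over all genes. Asns, which makes asparagine, had 55.5 (E13.5), 71.05 (E15.5), 16.2 and 7.91 (E18.5), 7.43 (P14), and 19.1 and 22.3 (P56) and fell at E18.5 (limma log2 change -2.37, SE 0.37, adjusted p = 0.00355). Phgdh, which starts serine synthesis from a glycolytic intermediate, had 23.2 (E13.5), 13.6 (E15.5), 0 and 0 (E18.5), 1.38 (P14), and 0.285 and 0.324 (P56) and fell too (limma adjusted p = 0.000841), with no read in either E18.5 library. Psat1, the next enzyme of serine synthesis, had 88.6 (E13.5), 105 (E15.5), 112 and 143 (E18.5), 4.402 (P14), and 1.14 and 2.27 (P56) and fell at P56 (limma log2 change -5.59, SE 0.31, adjusted p = 0.000115). Sesn2, a leucine sensor, had 29.3 (E13.5), 57.1 (E15.5), 84.7 and 99.5 (E18.5), 128 (P14), and 153 and 173 (P56) and rose at E18.5 (limma log2 change 1.15, SE 0.21, adjusted p = 0.00709) and at P56 (limma log2 change 0.82, SE 0.21, adjusted p = 0.0424). The list was chosen with earlier results of these data known.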
